A study of Homo sapiens with 8 samples.

Results

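The unfolded protein response (UPR), endoplasmic reticulum (ER) folding and ER-associated degradation (ERAD) were followed through 43 genes of 58219 listed in the gene-level files. The genes were chosen by name, from their known roles, and fell into 5 groups: 3 genes for the sensors and XBP1, 15 for chaperones and co-chaperones, 6 for oxidative folding, 10 for ERAD and 9 for the translocon. The RNA came from H929 and KMS11, established multiple myeloma (MM) cell lines that both carry the t(4;14) translocation. Each line had been exposed for 24 h to 2 µM fluvastatin, a statin, which blocks HMG-CoA reductase and with it the mevalonate (MVA) pathway, or to ethanol, its solvent. There were 2 biological replicates of each line and treatment, 8 libraries in all. No line without t(4;14), other dose or other time was sequenced, so a difference between H929 and KMS11 is a difference between 2 individual lines. All 43 genes passed the filter on low counts and were among 13129 protein-coding genes tested.

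MM cells descend from antibody-secreting plasma cells, in which the ER folds and exports very large amounts of immunoglobulin. Unfolded proteins in the ER are sensed by IRE1 (encoded by ERN1), ATF6 and PERK (encoded by EIF2AK3). IRE1 excises an intron from XBP1 mRNA, ATF6 is cut by Golgi proteases to release a transcription factor, and PERK phosphorylates eIF2α, which starts the integrated stress response (ISR). Other stresses start the ISR through other kinases that act on eIF2α. XBP1 and ATF6 act on genes for chaperones, oxidoreductases, the translocon and ERAD, whereas the ISR lowers translation and raises ATF4 and its targets. Cleavage of ATF6, splicing of XBP1 and phosphorylation of PERK or eIF2α cannot be read from gene-level RNA counts.

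Library totals ranged from 26702515 to 41910446 expected counts, and the lowest count of any of the 43 genes in any library was 174, for ERO1B. The 2 fluvastatin replicates of KMS11 differed from each other more than those of any other group, at 37.8 against 9.97 to 18.1 elsewhere (chi-square over genes divided by its degrees of freedom). Mitochondrial genes took 0.716% and 0.745% of counts in H929 ethanol, 0.898% and 1.06% in H929 fluvastatin, 0.52% and 0.53% in KMS11 ethanol and 0.665% and 0.678% in KMS11 fluvastatin, so their share was higher in every treated library. The first KMS11 fluvastatin replicate had 88.1% of counts in protein-coding genes, against 90.8% to 91.4% in the other KMS11 libraries. Of 8 plasma cell markers, CD38 was nearly absent from KMS11 at 0.01 to 0.04 TPM (a level corrected for transcript length and depth), and the other 7 were at 15.7 TPM or more in every library.

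The plasma cell markers moved with treatment too. Their sum was 1084 to 1216 TPM in H929 ethanol and 959 to 1009 in fluvastatin, and 516 to 548 and 412 to 455 in KMS11. In H929 4 of 8 were lower in both treated libraries than in both controls and 3 were higher. Of all genes tested, 33.5% were lower and 37.5% higher there without overlap, but counted on counts scaled to library size and not on TPM. The lower ones were SDC1, from a mean of 110 to 52.6 TPM, SLAMF7, from 91.4 to 44.9, MZB1, from 241 to 111, and POU2AF1, from 21.6 to 16.6. The higher ones were TNFRSF17, from 414 to 474 TPM, PRDM1, from 55.6 to 67.9, and CD38, from 22.6 to 25.9. In KMS11 4 of 8 were lower without overlap and none was higher. Of all genes tested in KMS11, 53.4% were without overlap on scaled counts (26.5% lower and 26.9% higher). The 2 scales were not alike in KMS11. The median log2 fold change over all genes tested was -0.08 with limma on log2(TPM + 1), against 0.00 with edgeR on counts. The 20 markers of B cells, T cells, monocytes, erythroid cells and fibroblasts were at 0 to 3.54 TPM. The highest was CD3E in H929, and it moved with treatment there, with summed T cell markers at 1.51 to 1.60 TPM in ethanol and 3.07 to 3.54 TPM in fluvastatin. The part of these markers and of the mitochondrial share in the results was not tested.

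In H929, fluvastatin moved the 43 genes in 2 directions. Expression of 8 genes rose and of 21 fell (edgeR quasi-likelihood test, Benjamini-Hochberg adjusted p under 0.05 over 13129 genes), so 67.4% were called, whereas 42.0% of all genes tested were called in H929, 22.7% higher and 19.3% lower. The falls were in chaperones (9 of 15), oxidative folding (5 of 6) and the translocon (6 of 9), and XBP1 fell too. In ERAD 4 of 10 genes rose and none fell in this fit, though DERL2, DERL3 and EDEM3 were called lower with the trend in GC content removed. In KMS11, 1 of 43 genes was called, XBP1, which fell (2.33%, with 3.12% of all genes tested called, 2.58% higher and 0.533% lower). The median log2 fold change of the 43 genes was -0.33 in H929 and -0.07 in KMS11, against 0.02 and 0.00 over all genes tested. In bulk RNA, less of a transcript per cell and fewer cells that carry it cannot be told apart.

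**Figure D1:**
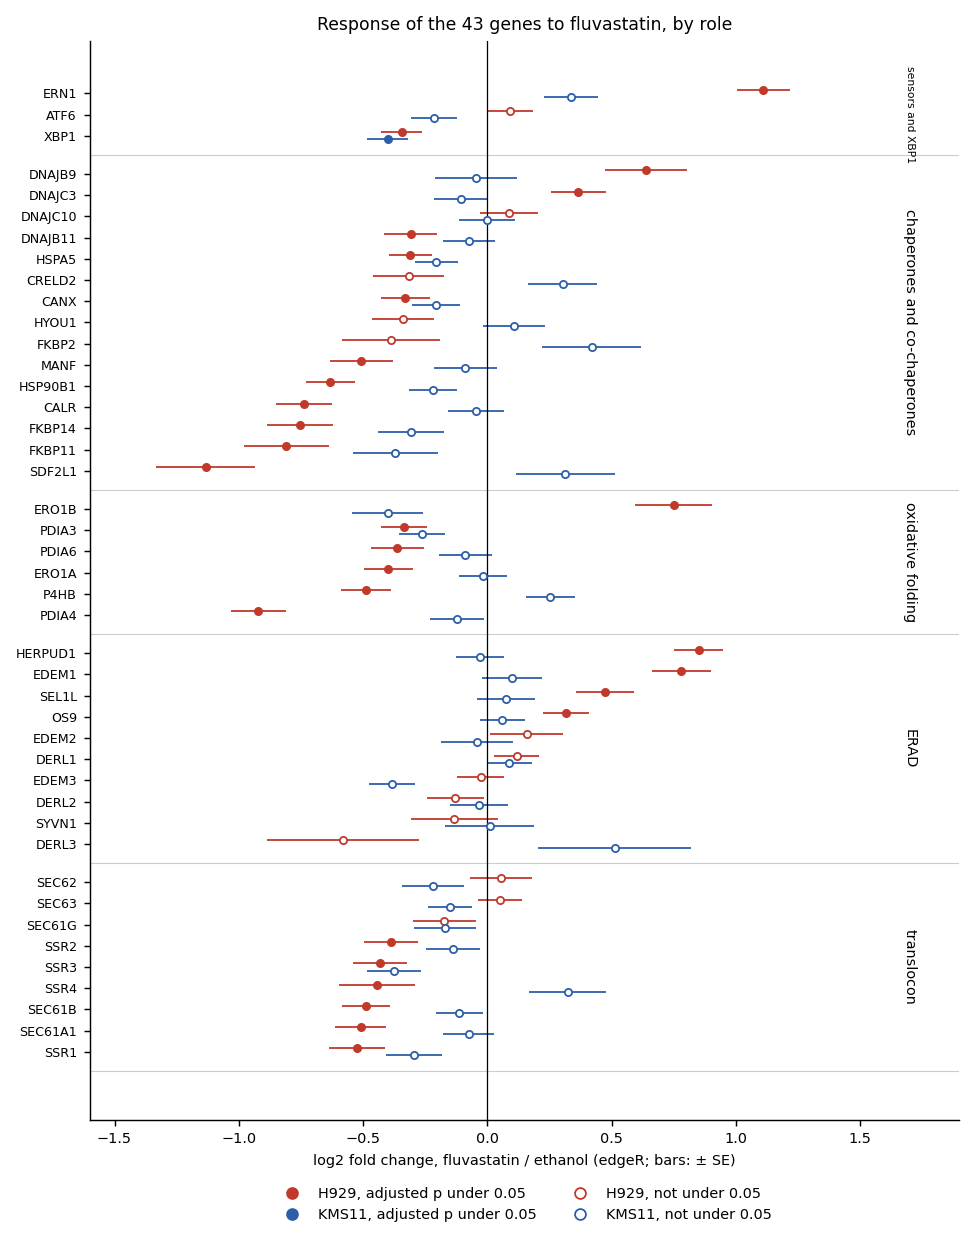
Log2 fold change (fluvastatin over ethanol) of each of the 43 genes in H929 (red) and KMS11 (blue), in 5 groups by role, with bars of ± SE from the edgeR fit on 2 replicates per group; filled points have an adjusted p under 0.05. In H929 8 genes lie to the right and 21 to the left as filled points, and in KMS11 XBP1 is the single filled point.

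Some promoters of these genes hold known ER stress elements. RefSeq promoter windows (GRCh38.p14, 250 bases before to 50 after each start site) were found for 39 of the 43 genes and not for FKBP14, PDIA3, DERL1 and DERL3. Both strands were searched for the ER stress response element (ERSE: CCAAT, 9 bases of any kind, CCACG), for ERSE-II (ATTGG, 1 base of any kind, CCACG), for the core TGACGTG of the UPR element (UPRE), and for the C/EBP-ATF element (TGATG, 1 base of any kind, AA). ERSE matched in 7 of 39 windows (17.9%), against 0.12% of 15843 windows of protein-coding genes. ERSE-II matched in 3 of 39 (7.69%, against 0.0757%), the UPRE core in 3 of 39 (7.69%, against 2.11%) and the C/EBP-ATF element in 1 of 39 (2.56%, against 2.53%). Of the 39 windows, 12 held any match. The genes were chosen as known UPR genes, and ERSE was first defined on promoters of such genes, HSPA5 among them, so its excess over other promoters is not independent of that choice. A match describes letters in a window and is not evidence that a factor binds there. All ERSE matches were in genes of the sensor, chaperone and oxidative folding groups, and 0 of 8 ERAD and 0 of 9 translocon windows held one. The matches to ERSE and ERSE-II follow on the strand that reads as spelled above, with the fixed letters in capitals, because they include both genes that fell and genes that rose in H929.

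HSPA5, chr9:125241391-125241409: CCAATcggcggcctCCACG
HSP90B1, chr12:103930216-103930234: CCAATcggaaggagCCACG
HSP90B1, chr12:103930321-103930339: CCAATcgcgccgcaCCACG
XBP1, chr22:28800603-28800621: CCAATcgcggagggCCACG
CALR, chr19:12938384-12938402: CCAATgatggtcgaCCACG
CANX, chr5:179698778-179698796: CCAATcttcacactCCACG
CRELD2, chr22:49918554-49918572: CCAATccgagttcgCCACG
ERO1B, chr1:236282183-236282201: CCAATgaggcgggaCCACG
HERPUD1, chr16:56932025-56932035: ATTGGgCCACG
SDF2L1, chr22:21642114-21642124: ATTGGtCCACG
HYOU1, chr11:119057380-119057390: ATTGGaCCACG
HYOU1, chr11:119057274-119057284: ATTGGaCCACG

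Of the 7 genes with an ERSE match, HSPA5, HSP90B1, XBP1, CALR and CANX fell in H929. CRELD2 was not called there, and ERO1B, whose match lies farthest from its start site at 243 to 225 bases before it, rose. Of the 3 genes with ERSE-II, SDF2L1 fell and HERPUD1 rose in H929, while HYOU1 missed the threshold (adjusted p = 0.0527). HYOU1 holds 2 copies, the farther of which shares 4 bases with a UPRE core match. The other UPRE core matches were in DNAJC10 and SEC62, neither of which was called in H929 or KMS11. The 250 bases before the start site are given for 4 of these genes in the 5′ to 3′ direction of the gene, with the fixed letters of every match in capitals: 2 chaperones that fell, XBP1, and HERPUD1, which rose.

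HSPA5, chr9:125241344-125241593, minus strand: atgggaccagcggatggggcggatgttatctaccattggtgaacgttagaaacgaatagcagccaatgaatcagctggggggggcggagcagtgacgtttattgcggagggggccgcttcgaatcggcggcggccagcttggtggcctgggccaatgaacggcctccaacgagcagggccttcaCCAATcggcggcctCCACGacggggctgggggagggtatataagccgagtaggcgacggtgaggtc
HSP90B1, chr12:103930160-103930409, plus strand: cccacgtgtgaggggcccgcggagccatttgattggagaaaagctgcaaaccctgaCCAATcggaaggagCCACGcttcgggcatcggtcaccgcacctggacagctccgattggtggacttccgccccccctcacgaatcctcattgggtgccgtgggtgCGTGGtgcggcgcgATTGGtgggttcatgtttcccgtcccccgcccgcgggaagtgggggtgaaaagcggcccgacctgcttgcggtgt
XBP1, chr22:28800570-28800819, minus strand: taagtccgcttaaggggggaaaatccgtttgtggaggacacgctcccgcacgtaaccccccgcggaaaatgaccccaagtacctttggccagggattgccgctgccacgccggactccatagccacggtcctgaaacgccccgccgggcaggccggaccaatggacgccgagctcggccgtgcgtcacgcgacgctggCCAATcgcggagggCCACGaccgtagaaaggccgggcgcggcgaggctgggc
HERPUD1, chr16:56931892-56932141, plus strand: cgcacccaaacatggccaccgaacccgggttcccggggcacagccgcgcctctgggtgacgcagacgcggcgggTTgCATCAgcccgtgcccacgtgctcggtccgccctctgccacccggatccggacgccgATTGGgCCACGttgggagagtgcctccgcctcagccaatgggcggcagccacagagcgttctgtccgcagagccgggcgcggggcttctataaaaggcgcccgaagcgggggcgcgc

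The second ERSE of HSP90B1 lies on the opposite strand and so reads in reverse complement in its line. HERPUD1 was the 1 gene of the 39 with a C/EBP-ATF element, which also lies on the opposite strand, 176 to 169 bases before the start site.

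**Figure D2:**
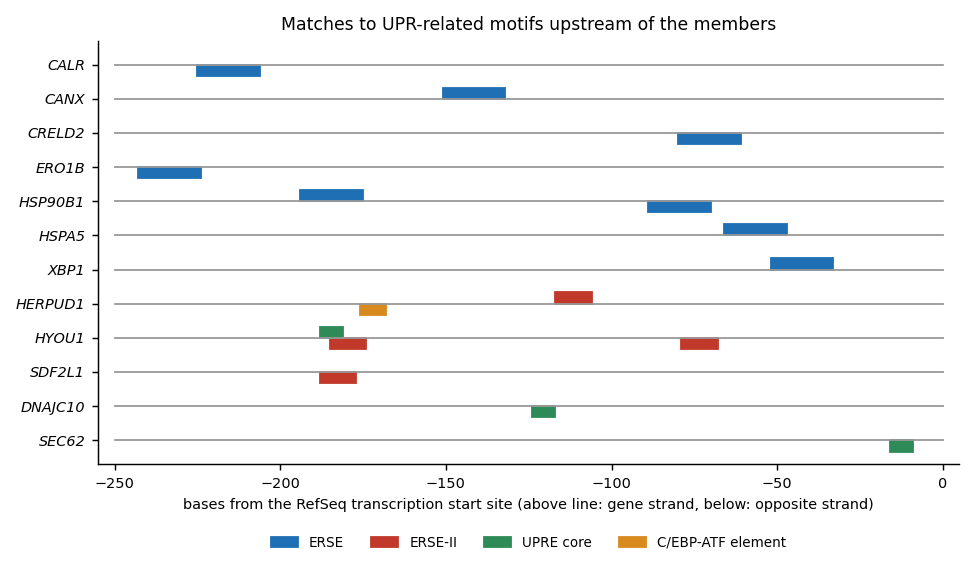
Position of each motif match in bases from the RefSeq start site for the 12 genes with a match, coloured by motif and drawn above the line for the strand of the gene and below it for the opposite strand. The ERSE matches of XBP1 and HSPA5 lie within 66 bases of the start site, those of CALR and ERO1B beyond 200 bases.

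Among the sensors, ERN1 rose in H929. ERN1 encodes IRE1, the kinase and endoribonuclease of the ER membrane, and lies at chr17:64039080-64130819 (GRCh38, minus strand). It was at 195 and 185 CPM (counts scaled to library size with TMM factors) in the H929 ethanol replicates and at 429 and 390.3 in fluvastatin. In KMS11 it was at 31.7 and 36.8 CPM in ethanol and at 40.9 and 45.6 in fluvastatin. In CPM the treatments did not overlap in either line, and every KMS11 library was below every H929 library. In TPM they overlapped in KMS11, at 6.35 and 4.83 in ethanol and 5.90 and 5.97 in fluvastatin. The log2 fold change was 1.11 ± 0.11 (SE; adjusted p = 4.44e-05) in H929 and 0.34 ± 0.11 (adjusted p = 0.123) in KMS11.

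XBP1 (chr22:28794555-28800597, minus strand), the transcription factor that IRE1 activates by splicing, fell in both lines. Its levels were 3365 and 3384 CPM in H929 ethanol against 2689 and 2628 in fluvastatin. In KMS11 they were 978 and 1035 CPM in ethanol against 741 and 783 in fluvastatin, again without overlap. The log2 fold change was -0.34 ± 0.08 (adjusted p = 0.00834) in H929 and -0.40 ± 0.08 (adjusted p = 0.0349) in KMS11. The KMS11 call was lost in 10 of 21 alternatives (other tests, scalings, filters and fits with 1 library left out), with adjusted p-values up to 0.293 and log2 fold changes from -0.54 to -0.37. Among them were the fits without either KMS11 ethanol replicate, without the first KMS11 fluvastatin replicate, without either H929 ethanol replicate or the second H929 fluvastatin replicate, and with the KMS11 libraries alone. The H929 call was lost without the second H929 fluvastatin replicate (adjusted p = 0.0578). The transcript length that RSEM weights by isoform abundance was nearly constant for XBP1, at means of 1858 and 1857 bases in H929 ethanol and fluvastatin.

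ATF6, the sensor that is released by Golgi cleavage, was not called. Its levels were 234 and 253 CPM in H929 ethanol, 252 and 267 in H929 fluvastatin, 249.9 and 253 in KMS11 ethanol, and 205 and 228 in KMS11 fluvastatin. The treatments overlapped in H929, where the log2 fold change was 0.09 ± 0.09 (adjusted p = 0.463), and did not in KMS11, where it was -0.21 ± 0.09 (adjusted p = 0.211). With trends in GC content and length removed, ATF6 was called lower in H929 at a log2 fold change of -0.27.

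The third sensor, EIF2AK3 (PERK), was not among the 43 genes and rose in both lines. Its levels were 636 and 628 CPM in H929 ethanol, 1834 and 1990 in H929 fluvastatin, 126 and 139 in KMS11 ethanol, and 309.6 and 422 in KMS11 fluvastatin. The log2 fold change was 1.60 ± 0.14 (adjusted p = 2.63e-05) in H929 and 1.46 ± 0.14 (adjusted p = 0.00045) in KMS11.

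Of 15 chaperones and co-chaperones, 9 fell and 2 rose in H929, with a median log2 fold change of -0.34. HSPA5 encodes BiP, the ER HSP70 that binds nascent chains and holds the sensors inactive. It was at 434 and 419 CPM in H929 ethanol and at 348 and 339 in fluvastatin, and at 491 and 515 CPM in KMS11 ethanol and 418 and 455 in fluvastatin. The treatments did not overlap in either line, and the log2 fold change was -0.31 ± 0.09 (adjusted p = 0.016) in H929 and -0.21 ± 0.09 (adjusted p = 0.201) in KMS11. The H929 call of HSPA5 was lost without any 1 of the 4 H929 libraries, with adjusted p-values up to 0.0941 over the alternatives. With the trend in GC content removed its log2 fold change was -0.50.

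SDF2L1 (chr22:21642302-21644299, plus strand), a partner of the ER HSP40 proteins, had the largest fall of the 43 genes in H929. It was at 39.2 and 32.5 CPM in ethanol and at 19.5 and 13.3 in fluvastatin, 0.457 of the ethanol mean (log2 fold change -1.13 ± 0.20, adjusted p = 0.00148). In KMS11 it was at 13.6 and 14.4 CPM in ethanol and 19.8 and 15.2 in fluvastatin, higher in both treated replicates but not called (0.31 ± 0.20, adjusted p = 0.371). FKBP11, a prolyl isomerase abundant in secretory cells, was at 103 and 79.1 CPM in H929 ethanol and 59.5 and 44.4 in fluvastatin (-0.81 ± 0.17, adjusted p = 0.00407). In KMS11 FKBP11 was at 49.7 and 61.1 CPM in ethanol and 40.6 and 45.1 in fluvastatin (-0.37 ± 0.17, adjusted p = 0.239). Without overlap in either line, FKBP11 was lower in all 4 treated libraries.

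HSP90B1, the ER HSP90 known as GRP94, was at 2119 and 2173 CPM in H929 ethanol and at 1446 and 1324 in fluvastatin. In KMS11 it was at 2755 and 2609 CPM in ethanol and 2145 and 2468 in fluvastatin. Its log2 fold change was -0.63 ± 0.10 (adjusted p = 0.000713) in H929 and -0.22 ± 0.10 (adjusted p = 0.229) in KMS11. The lectin chaperones of the calnexin cycle fell as well in H929, CALR by 0.74 and CANX by 0.33 on the log2 scale. The other falls in H929 were FKBP14, a prolyl isomerase, by 0.75, MANF, a secreted ER stress factor, by 0.51, and DNAJB11, a BiP co-chaperone, by 0.31. The DNAJB11 call was kept in 11 of 21 alternatives, with log2 fold changes from -0.50 to -0.28 over them. It was lost with DESeq2, with median-of-ratios scaling, with limma on either TPM scale and without any 1 of the H929 libraries. The 4 genes of the group without a call in H929 were HYOU1, DNAJC10, CRELD2 and FKBP2, with log2 fold changes from -0.39 for FKBP2 to 0.09 for DNAJC10. HYOU1, an ER chaperone related to HSP70, was close to the threshold. It was at 512 and 423 CPM in H929 ethanol and 400 and 339 in fluvastatin, without overlap (-0.34 ± 0.12, adjusted p = 0.0527), and it was called lower in 15 of 21 alternatives, DESeq2 and limma among them.

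The 2 chaperone genes that rose in H929 were both BiP co-chaperones of the DNAJ family. DNAJB9 was at 129 and 135 CPM in ethanol and 202 and 208 in fluvastatin (log2 fold change 0.64 ± 0.17, adjusted p = 0.0116). DNAJC3, also known as P58IPK, was at 180.3 and 188 CPM in ethanol and 225 and 250.1 in fluvastatin (0.37 ± 0.11, adjusted p = 0.0227). The DNAJB9 call was lost without the first H929 ethanol replicate, with an adjusted p of 0.0567. DNAJC3 was at a log2 value of 0.05 once trends in GC content and length were removed, and its call was lost in 8 of 21 alternatives. Those included the fits without either H929 ethanol replicate, the second H929 fluvastatin replicate or either KMS11 ethanol replicate.

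All 6 oxidative folding genes were called in H929, 5 of them lower. PDIA4 (chr7:149003062-149028662, minus strand), a protein disulfide isomerase, was at 547 and 488 CPM in H929 ethanol and at 297 and 249 in fluvastatin, 0.528 of the ethanol mean (log2 fold change -0.92 ± 0.11, adjusted p = 0.000161). In KMS11 PDIA4 was at 487 and 532 CPM in ethanol and 480.4 and 457 in fluvastatin (-0.12 ± 0.11, adjusted p = 0.536). The other isomerases, PDIA3, PDIA6 and P4HB, fell by 0.34, 0.36 and 0.49 on the log2 scale in H929.

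The paralogous oxidases that recharge these isomerases went apart in the counts of H929. ERO1A fell by 0.40 on the log2 scale, while ERO1B was at 8.31 and 6.96 CPM in ethanol and 13.0 and 12.8 in fluvastatin (log2 fold change 0.75 ± 0.16, adjusted p = 0.00369). In TPM the treatments overlapped for ERO1A in H929, at 19.5 and 21.7 in ethanol and 17.4 and 20.3 in fluvastatin. The ERO1A call was kept in 17 of 21 alternatives and lost with limma on either TPM scale. Over the alternatives its log2 fold change ranged from -0.65 to -0.13. In KMS11 ERO1B was lower in both treated libraries, at 36.0 and 32.3 CPM in ethanol and 23.3 and 28.5 in fluvastatin (-0.40 ± 0.14, adjusted p = 0.152). With trends in GC content and length removed, the rise of ERO1B in H929 was 0.49 on the log2 scale.

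ERAD was the group with more rises than falls in H929, 4 of 10 against 0, where 22.7% of all genes tested rose. HERPUD1 (chr16:56932142-56944864, plus strand), a membrane protein that assembles the retrotranslocation complex, was at 225 and 201 CPM in H929 ethanol and at 382 and 387 in fluvastatin, 1.80 times the ethanol mean (log2 fold change 0.85 ± 0.10, adjusted p = 0.000136). In KMS11 HERPUD1 was at 288 and 305 CPM in ethanol and at 272 and 309 in fluvastatin, with overlap (-0.03 ± 0.10, adjusted p = 0.897). EDEM1, a mannosidase-like protein that marks glycoproteins for degradation, was at 355 and 279 CPM in H929 ethanol and at 554 and 536 in fluvastatin (0.78 ± 0.12, adjusted p = 0.00067). EDEM1 was far lower in KMS11, at 70.6 and 72.5 CPM in ethanol and 71.9 and 81.3 in fluvastatin, again with overlap (0.10 ± 0.12, adjusted p = 0.66).

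SEL1L, the scaffold of the ERAD ubiquitin ligase, was at 523 and 561 CPM in H929 ethanol and 709 and 796 in fluvastatin (log2 fold change 0.47 ± 0.12, adjusted p = 0.00951). OS9, a lectin that delivers substrates to it, was at 179.5 and 159.8 CPM in ethanol and 212 and 210.4 in fluvastatin (0.32 ± 0.09, adjusted p = 0.0189). SEL1L was 0.13 on the log2 scale with trends in GC content and length removed and lost its call there, without the first H929 ethanol replicate, and without the second H929 fluvastatin replicate. OS9 lost its call in 7 of 21 alternatives, among them the fits without the second H929 ethanol replicate, either H929 fluvastatin replicate or either KMS11 ethanol replicate, with adjusted p-values up to 0.155. SYVN1, the ligase itself, had log2 fold changes of -0.13 in H929 and 0.01 in KMS11 and was not called. The derlins, channel components of retrotranslocation, were not called either, with values in H929 of 0.12 for DERL1, -0.13 for DERL2 and -0.58 ± 0.30 for DERL3. The replicates of DERL3 lay far apart, at 72.8 and 40.6 CPM in H929 ethanol and 48.6 and 27.4 in fluvastatin, and it was called lower in 7 of 21 alternatives, the fits with the replicate number as a block among them. EDEM2 and EDEM3 were also uncalled in H929, at 0.16 and -0.03, and in KMS11 EDEM3 was at 982 and 978 CPM in ethanol and 693 and 810 in fluvastatin (-0.38 ± 0.09, adjusted p = 0.06). DERL2 and EDEM3 were each called lower in H929 in 3 of 21 alternatives, those with the GC trend removed. Over all alternatives their log2 fold changes reached -0.32 and -0.36. With trends in GC content and length removed, 33.6% of all genes tested fell in H929.

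No translocon gene rose in H929, and 6 of 9 fell, with a median log2 fold change of -0.43. All 4 subunits of the translocon-associated protein (TRAP) complex were among them, at -0.52 for SSR1, -0.39 for SSR2, -0.43 for SSR3 and -0.44 for SSR4. Of the channel itself, SEC61A1 and SEC61B fell by 0.51 and 0.49 on the log2 scale, and SEC61G was at -0.17 (adjusted p = 0.302). SEC62 and SEC63, partners of the channel in post-translational import, were both at 0.05 and were not called. In KMS11 no translocon gene was called, and 8 of 9 values lay below 0. The exception was SSR4, at 122 and 117 CPM in ethanol and 172 and 126 in fluvastatin (0.32 ± 0.15, adjusted p = 0.252).

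**Figure D3:**
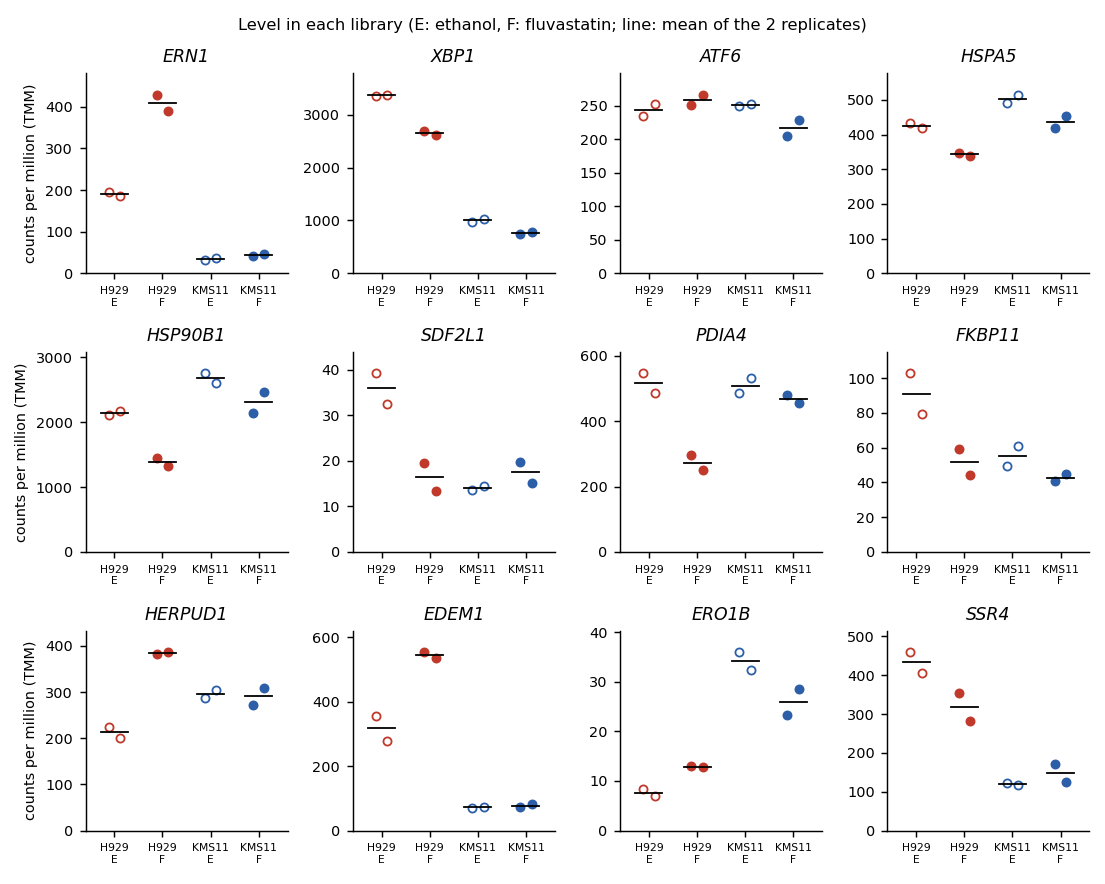
Level of 12 genes in each library in CPM (TMM-scaled, axes from 0), for H929 (red) and KMS11 (blue) in ethanol (E, open) and fluvastatin (F, filled), with a line at the mean of the 2 replicates. HERPUD1 and EDEM1 separate by treatment in H929 and overlap in KMS11, while XBP1 and HSPA5 are lower in fluvastatin in both lines.

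Not all of the 29 calls in H929 were equally firm. A call was kept in all 21 alternatives for 13 genes: ERN1, HERPUD1 and EDEM1, which rose, and SDF2L1, FKBP11, FKBP14, CALR, HSP90B1, PDIA4, P4HB, SEC61A1, SEC61B and SSR1, which fell. Of the 29, 19 remained without the first H929 ethanol replicate, 19 without the second, 22 without the first fluvastatin replicate and 16 without the second. Fewer of all genes tested were called in each of these fits too. In H929 the 8 genes that rose had a median effective transcript length of 3992 bases and a median GC content of 45.5%, and the 21 that fell 1772 bases and 48.8%. Over all genes tested the medians were 2661 bases and 46.2% for those that rose and 1848 bases and 51.4% for those that fell. With both trends removed, 6 genes rose and 27 fell, where 22.5% of all genes tested rose and 33.6% fell (56.1% called) and their median was -0.08, and the median of ERAD went from 0.14 to 0.05 while that of the sensors and XBP1 went from 0.09 to -0.27. Libraries of the 2 treatments did not overlap for 37 of 43 genes in H929, 10 with fluvastatin higher and 27 lower, with 71.0% of all genes tested not overlapping (37.5% higher and 33.5% lower).

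The same direction in both lines was seen for 26 of the 43 genes (60.5%), with 54.2% over all genes tested. Of the 21 genes that fell in H929, 18 were below 0 in KMS11, with a median log2 fold change of -0.12. Of the 8 that rose in H929, 4 were above 0 in KMS11 and 4 below, between -0.40 for ERO1B and 0.34 for ERN1. At an unadjusted p under 0.05, 9 genes were lower and 2 higher in KMS11, with 8.23% of all genes tested lower and 13.7% higher at that threshold (21.9% in all). Libraries of the 2 treatments did not overlap for 22 of 43 genes in KMS11 (51.2%), 7 higher and 15 lower, with 53.4% of all genes tested not overlapping (26.9% higher and 26.5% lower). Without the second KMS11 fluvastatin replicate, 12 genes were called in KMS11, 2 higher and 10 lower, with 11.2% of all genes tested higher and 4.84% lower in that fit (16.0% in all).

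Across both lines together, with line as a term in the fit, 1 gene rose and 7 fell (18.6%, with 10.4% of all genes tested called, 6.50% higher and 3.93% lower). ERN1 rose by a log2 value of 0.73 ± 0.16 (adjusted p = 0.0282). Its call was kept in 12 of 21 alternatives and lost with limma on either TPM scale. The falls were FKBP11 (-0.59 ± 0.15, adjusted p = 0.043), FKBP14 (-0.53 ± 0.13, adjusted p = 0.038), HSP90B1 (-0.42 ± 0.10, adjusted p = 0.036) and XBP1 (-0.37 ± 0.07, adjusted p = 0.0153). The others were SSR1 (-0.41 ± 0.10, adjusted p = 0.0337), SSR3 (-0.40 ± 0.08, adjusted p = 0.0262) and PDIA3 (-0.30 ± 0.07, adjusted p = 0.0398). FKBP14 was at 23.8 and 22.1 CPM in H929 ethanol, 13.4 and 13.8 in H929 fluvastatin, 12.9 and 12.8 in KMS11 ethanol, and 9.61 and 11.1 in KMS11 fluvastatin. PDIA3 was at 408 and 406 CPM in H929 ethanol, 326 and 320.1 in H929 fluvastatin, 532 and 511 in KMS11 ethanol, and 403 and 466 in KMS11 fluvastatin.

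SSR1 was at 679 and 715 CPM in H929 ethanol, 492 and 478 in H929 fluvastatin, 381 and 419.5 in KMS11 ethanol, and 289.5 and 362 in KMS11 fluvastatin. SSR3 was at 1006 and 1097 CPM in H929 ethanol, 782 and 779 in H929 fluvastatin, 734 and 796 in KMS11 ethanol, and 531 and 648 in KMS11 fluvastatin. For all 7 genes that fell across both lines, treated libraries lay below control libraries without overlap in each line. The genes were picked by their fall in these same libraries, so this is not separate evidence. Of all genes tested, 33.5% in H929 and 26.5% in KMS11 were lower without overlap. These calls rested on every H929 library: the number called was 0 without either ethanol replicate or the first fluvastatin replicate of H929, and 1 without the second. It was 3 without the second KMS11 ethanol replicate and 13 without the second KMS11 fluvastatin replicate, where 12.7% of all genes tested were called, 6.24% higher and 6.42% lower.

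The responses of the lines differed for 10 of 43 genes (23.3%, with 23.2% of all genes tested called, 11.7% higher and 11.5% lower), by the test of the difference itself. The number was 6 without the first KMS11 ethanol replicate and 17 without the second KMS11 fluvastatin replicate, where 31.9% of all genes tested were called, 17.5% higher and 14.4% lower. The KMS11 response was higher than that of H929 for SDF2L1, PDIA4, SSR4, P4HB, CALR and CRELD2, and lower for ERO1B, HERPUD1, ERN1 and EDEM1. SDF2L1 differed by 1.45 ± 0.28 (adjusted p = 0.00648), PDIA4 by 0.80 ± 0.15 (adjusted p = 0.00617) and SSR4 by 0.77 ± 0.22 (adjusted p = 0.0313), on the log2 scale. In the other direction ERO1B differed by -1.15 ± 0.21 (adjusted p = 0.005), HERPUD1 by -0.88 ± 0.14 (adjusted p = 0.00244) and ERN1 by -0.77 ± 0.15 (adjusted p = 0.00651). Of these 6, SSR4 lost its call in 8 of 20 alternatives. Those included the fits without the first H929 ethanol replicate, the second H929 fluvastatin replicate, either KMS11 ethanol replicate or the first KMS11 fluvastatin replicate, and its value was 0.24 with trends in GC content and length removed. The value of SDF2L1, whose GC content is 66.0%, was 0.84 with the GC trend removed and stayed past the threshold. EDEM1 was no longer called without the second H929 ethanol replicate or either KMS11 ethanol replicate. P4HB and CALR were no longer called with limma on either TPM scale. In KMS11 P4HB was higher in fluvastatin in CPM, at 540.2 and 551 in ethanol and 689 and 612 in fluvastatin. In TPM it was at 336 and 313 in ethanol and 291 and 315 in fluvastatin, with overlap.

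The groups lay on different sides in that comparison. The median difference was 0.42 for chaperones, 0.33 for oxidative folding and 0.23 for the translocon, against -0.23 for ERAD and -0.31 for the sensors and XBP1, and 0.00 over all genes tested. Called genes followed the same sides except ERO1B: 3 chaperones, 2 isomerases and SSR4 were higher in KMS11, 2 ERAD genes and ERN1 lower. For 20 of the 21 genes that fell in H929 the difference was above 0, and for all 8 that rose it was below 0. These values share the H929 libraries, so they are not separate evidence. With the trend in GC content removed 22 genes were higher and 5 lower, against 6 and 4 without that step. Over all genes tested 23.0% were then higher and 12.8% lower (35.8% in all), with a median of 0.09. With limma on log2(TPM + 1) 2 were higher and 4 lower, with 5.77% of all genes tested higher and 9.73% lower (15.5% in all). With both trends removed the median of the sensors and XBP1 was 0.04, and that of ERAD was -0.03.

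**Figure D4:**
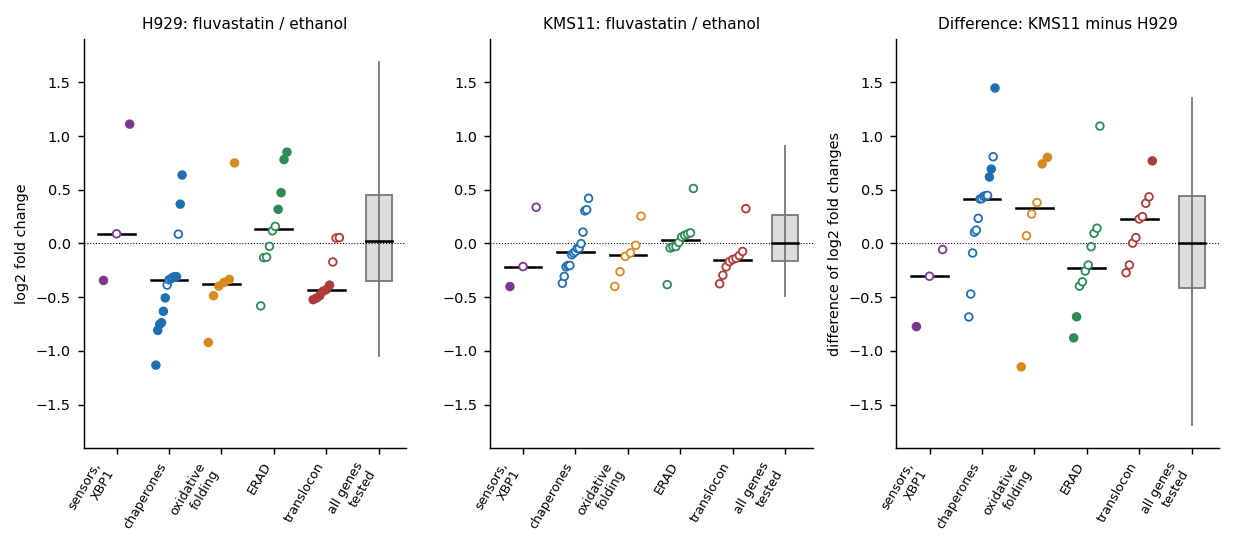
Log2 fold changes in H929 and KMS11 and their difference (KMS11 minus H929) for the genes of each group (points, filled where the adjusted p is under 0.05; black lines are medians) beside all 13129 genes tested (grey box from the 25th to the 75th percentile with its median, whiskers from the 5th to the 95th). The median in H929 is -0.34 for chaperones and 0.14 for ERAD, and in KMS11 -0.07 and 0.04.

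In the ethanol controls the 43 genes spanned 1.0 to 938 TPM in H929 and 3.80 to 765 TPM in KMS11. XBP1 had the highest level of them in H929, at 944 and 932 TPM, apart from SSR2 at 542 and 493. It was followed by HSP90B1, SSR4 and CANX, whose libraries overlapped in that order, and then by CALR and P4HB, which also overlapped. In KMS11 HSP90B1 came first at 825 and 705 TPM and CALR next at 580.4 and 547, and XBP1 came after SEC61G and CANX at 404 and 396, overlapping with SEC61B. The lowest genes were ERO1B in H929 at 0.94 and 1.05 TPM and FKBP14 in KMS11 at a mean of 3.80 TPM. Together the 43 genes made up 2.17% to 2.22% of protein-coding counts in H929 ethanol and 1.77% to 1.88% in fluvastatin. In KMS11 the shares were 1.73% to 1.77% and 1.54% to 1.67%.

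Levels differed between the lines in ethanol for 33 of 43 genes, 11 higher and 22 lower in KMS11 (76.7%, with 72.0% of all genes tested called, 35.6% higher and 36.4% lower). ERN1 and EDEM1 were lower in KMS11 by log2 values of -2.47 ± 0.11 (adjusted p = 4.9e-08) and -2.15 ± 0.12 (adjusted p = 2.62e-07). XBP1 was lower by -1.75 ± 0.09 (adjusted p = 8.35e-08) and SSR4 by -1.86 ± 0.16 (adjusted p = 3.53e-06). ERO1B and DNAJC10, a reductase of the ERAD pathway, were higher in KMS11 by 2.16 ± 0.15 (adjusted p = 1.05e-06) and 1.72 ± 0.12 (adjusted p = 7.86e-07). DNAJB11 was higher by 1.05 ± 0.11 (adjusted p = 1.19e-05), HERPUD1 by 0.48 ± 0.10 (adjusted p = 0.00151) and HSPA5 by 0.24 ± 0.09 (adjusted p = 0.0289), while ATF6 was at 0.05 ± 0.09 (adjusted p = 0.651). With the trend in GC content removed HSPA5 was at -0.14 and ATF6 at -0.33. The split depended on the scale. With limma on log2(TPM + 1), 21 genes were higher and 10 lower in KMS11, and on that scale 50.6% of all genes tested were higher and 18.9% lower (69.5% in all), with a median of 0.31. P4HB, for example, was at 1240 and 1109 CPM in H929 and 540.2 and 551 in KMS11, but at 348 and 311 TPM in H929 and 336 and 313 TPM in KMS11.

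**Figure D5:**
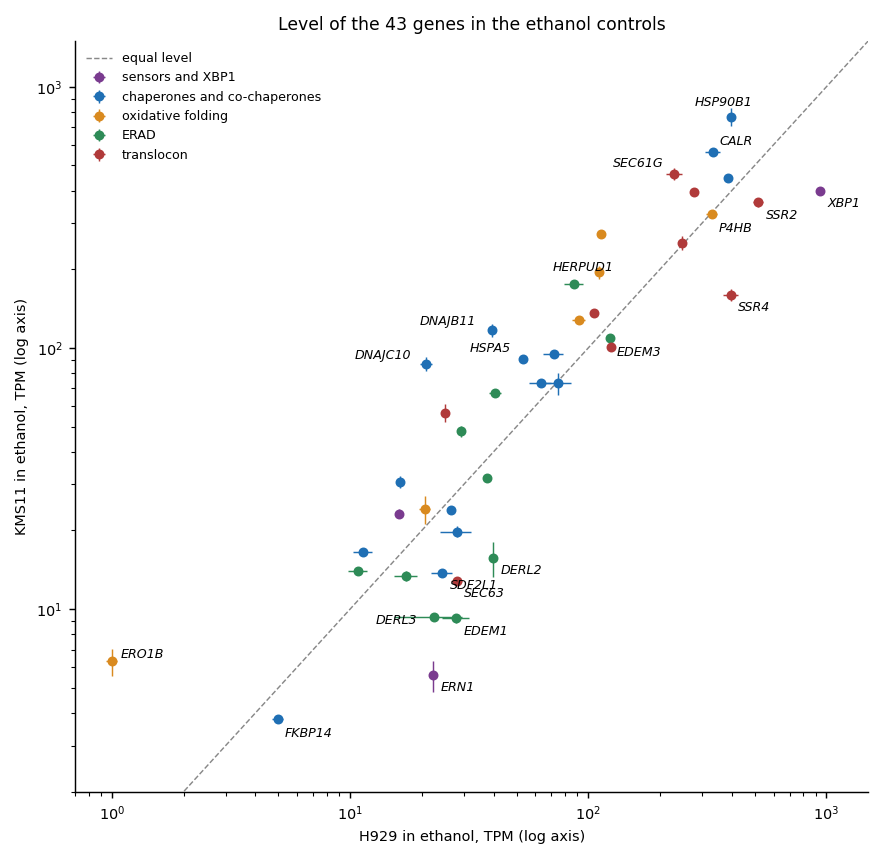
Mean TPM of each of the 43 genes in the ethanol controls of H929 (x axis) and KMS11 (y axis), both on log axes, coloured by group; bars span the 2 replicates and the dashed line marks equal levels. XBP1, ERN1, EDEM1 and SSR4 lie below the line and ERO1B and DNAJC10 above it.

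RSEM's weighted transcript length, which moves with the isoform mix, differed between treatments by more than 5% without overlap of the libraries for 8 of 43 genes in H929 and 4 in KMS11. The same was not counted over all genes tested, so these numbers cannot be called particular to the 43 genes. In H929 it went from a mean of 4166 to 4771 bases for ERN1, from 4174 to 3506 for ERO1A, from 2339 to 2031 for FKBP14 and from 2798 to 3115 for SSR1. The counts used above are not divided by this length, whereas TPM values are.

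Other genes of the pathway were counted in the same fits, in which 22.7% of all genes tested rose and 19.3% fell in H929. All 8 genes listed for the PERK branch rose in H929 and across both lines, and 5 of 8 in KMS11. Of all genes tested, 6.50% rose across both lines and 2.58% in KMS11. The list holds ATF4 and targets of the ISR, which kinases other than PERK also start. Which kinase acted was not tested. ATF3 had log2 fold changes of 2.24 in H929 and 2.34 in KMS11, DDIT3 1.95 and 1.05, and CHAC1 1.51 and 3.07. Of 8 genes for the processing and regulation of ATF6 and XBP1, 2 rose and 2 fell in H929. The rises were CREB3L2, a transcription factor related to ATF6, at 0.83, and MBTPS2, the site-2 protease that cuts ATF6, at 0.50. The falls were RTCB, the ligase that joins the XBP1 exons, by 0.64, and MBTPS1, the site-1 protease that cuts ATF6 before MBTPS2 does, by 0.31. Among 19 other ER folding genes 2 rose and 4 fell in H929, with MZB1, a plasma cell co-chaperone for immunoglobulin, falling by 1.02, PRDX4 by 0.87 and HSPA13 rising by 0.69.

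Of 19 further ERAD genes, 4 rose and 8 fell in H929, beside 4 and 0 of the 10 described first. ERLIN1, UBE2G2 and AUP1, a membrane scaffold and 2 parts of the ubiquitination step, fell by 0.84, 0.83 and 0.65. Of 18 genes for targeting, signal peptidase and other translocon parts, 2 rose and 7 fell in H929, led by CCDC47 (-0.57), TRAM2 (-0.55) and TMCO1 (0.52). In KMS11 no gene of these 4 other lists was called, where only 3.12% of all genes tested were called.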

How the data were processed

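The 8 RNA-seq libraries held 2 biological replicates of H929 and of KMS11, each exposed to ethanol or to 2 µM fluvastatin for 24 h. Groups were taken from the sample titles. The authors depleted ribosomal RNA, made stranded libraries, mapped read pairs with STAR 2.5.2b to GRCh38 and estimated GENCODE gene levels with RSEM 1.3.0. Per the file headers, each deposited file gives expected counts, TPM and FPKM values and abundance-weighted lengths; FPKM was not used. The 43 genes, their groups and the other lists were chosen with earlier results of these data known.

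Expected counts were rounded. Protein-coding genes (GENCODE 44 biotype, 57392 of 58219 IDs matched) passed filterByExpr at min.count 10 and min.total.count 15 and were scaled by TMM. The quasi-likelihood test of edgeR 4.0.16 in R 4.3.3 was run with line and treatment as terms, and with 4 group means for the contrasts within lines, between responses and between controls. P-values were adjusted by Benjamini-Hochberg over 13129 genes, with a threshold of 0.05, and the SE was derived from the log2 fold change and F. Groups of genes were described by counts and medians, without a set test. The edgeR fits were also run on simulated counts, drawn independently for each library with the same spread in every group. The simulation held no replicate effect and no trend in GC content or length, so it cannot show how these affect the calls. With 2 replicates per group, p-values rest on a spread shared between groups, and where a replicate was left out the lone sample was assumed to vary like the others. Alternatives were DESeq2 1.42.0, other scalings, filters and gene sets, a replicate block, removal of trends in GC content and length, limma 3.58.1 on log2(TPM + 1) and log2(TPM + 0.1), and leaving out each library. Every one of the 43 genes is named, and full statistics go to the sensors, HSPA5, HERPUD1, EIF2AK3, genes called across both lines and the 3 largest called changes in each direction within and between lines. SEL1L, OS9, DNAJB9, DNAJC3, EDEM3 and some others were added to these after their values were seen. Promoter windows came from RefSeq. Protein sequences were not analysed here.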

Additional observations from a re-analysis of the deposited data

Results flagged for a closer look

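The lines responded differently in 10 of the 43 genes by the interaction test in edgeR (adjusted p under 0.05), 23.3% of them beside 23.2% of all genes tested, given as KMS11 minus H929 on the log2 scale. The difference was -1.15 for ERO1B, -0.88 for HERPUD1, -0.77 for ERN1 and -0.68 for EDEM1. It was 0.62 for CRELD2, 0.69 for CALR, 0.74 for P4HB, 0.77 for SSR4, 0.80 for PDIA4 and 1.45 for SDF2L1. Of these, HERPUD1, ERO1B, ERN1, SDF2L1 and PDIA4 were past the threshold in all 20 alternatives. CRELD2, with an adjusted p of 0.04998, was past it in 6 of 20.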

How the results depend on the processing

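With 2 libraries per group, p-values rest on a spread estimated from these libraries and shared between groups. Numbers of genes called, of 43, moved as follows. Across both lines (8 called) the number was 17 with the GC trend removed, 17 with GC and length trends removed, 0 without a term for the line and 0 at an adjusted p under 0.01. Leaving out 1 library gave 0 to 13. At an unadjusted p under 0.05, edgeR had 4 genes higher and 16 lower, and DESeq2 called 12 at its adjusted threshold. In H929 (29 called) it was 17 at an adjusted p under 0.01, and 16 to 32 with 1 library left out. In KMS11 (1 called) it was 3 with DESeq2, 3 with no filter, 5 with the GC trend removed and 5 with GC and length trends removed. It was 0 over all annotated genes, 0 with limma on log2(TPM + 1), 0 on log2(TPM + 0.1), 0 with only the libraries of KMS11 and 0 at an adjusted p under 0.01, and 0 to 12 with 1 library left out. For the difference between lines (10 called) it was 16 with no filter, 27 with the GC trend removed, 22 with GC and length trends removed, 6 with limma at either pseudocount and 6 at an adjusted p under 0.01, and 6 to 17 with 1 library left out. Between the ethanol controls the number called stayed between 24 and 34. The numbers over all 13129 genes tested moved as well. Across both lines they went from 854 higher and 516 lower to 1311 and 1749 with the GC trend removed. Without a term for the line they were 4 and 0. In KMS11 they went from 339 and 70 to 910 and 669 with the GC trend removed. For the difference they went from 1542 and 1506 to 3017 and 1683. The causes were not tested.

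A fit with the replicate number as a block called 0 genes across both lines, 33 in H929, 7 in KMS11 and 23 for the difference. With the block and the GC trend removed the numbers were 1, 38, 11 and 32. Over all 13129 genes tested the block gave 143 higher and 15 lower across both lines and 3382 and 3044 in H929. It gave 1161 and 476 in KMS11 and 2252 and 1975 for the difference. With the GC trend removed too, these were 206 and 49, 3293 and 4816, 1507 and 1613, and 3761 and 2115. Deviations of same-numbered libraries correlated at 0.51 in H929 and 0.00 in KMS11 over 11072 genes. The labels do not say what a number shares and there are only 2 pairs in a line, so the numbers were not taken to pair the samples.

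Direction was reversed for SEC62 (-0.14) and SEC63 (-0.15) in H929 and DNAJC10 in the difference (0.23), with the block and the GC trend removed. It was reversed for ATF6 in H929 with GC and length trends removed (-0.27). Between the controls it was reversed for HSPA5 (-0.14, and -0.15 with length too) and ATF6 (-0.33, and -0.32 with length too) with the GC trend removed. Over all 43 genes the direction between the controls was reversed for 6 with the GC trend removed, 4 with GC and length and 9 with limma on either TPM scale. Medians over all genes tested shifted to 0.46 between the controls with limma on log2(TPM + 0.1), and to -0.12 in KMS11.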
